A study of Mus musculus with 18 samples.

Results

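Fatty acid synthesis and desaturation are described here through 10 genes, *Fasn*, *Acaca*, *Acly*, *Acss2*, *Scd1*, *Scd2*, *Elovl5*, *Elovl6*, *Thrsp* and *Aacs*. They were chosen by name, and all 10 were found among the 21899 genes listed in the expression table. RNA was sequenced from liver, epididymal white adipose tissue (eWAT) and quadriceps muscle of wild-type C57BL/6 mice that were 18 weeks old. The CON group was kept on chow and tap water, and the HSD group was fed a high-salt diet with saline as drinking water for 12 weeks. Each tissue had 3 CON and 3 HSD libraries, 18 in all, from 8 mice, and library names give the mouse and then the tissue (L for liver, W for eWAT, M for muscle). 4 mice gave all 3 tissues, 2 gave eWAT and muscle, and 2 gave only liver, so the tissues are not independent samples. Bulk tissue was measured, in which fewer cells of a type and less RNA per cell cannot be told apart.

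New fatty acids are made in the cytosol from acetyl-CoA. *Acly* releases acetyl-CoA from citrate, *Acss2* makes it from acetate, and *Aacs* activates acetoacetate so that the carbon of ketone bodies can enter lipid synthesis. *Acaca* carboxylates acetyl-CoA to malonyl-CoA, and *Fasn* builds palmitate from both. *Elovl6* elongates palmitate, *Elovl5* elongates mainly polyunsaturated chains, and the desaturases *Scd1* and *Scd2* place the double bond that yields palmitoleate and oleate. *Thrsp* (Spot 14) is a small protein of lipogenic tissues that responds to thyroid hormone and carbohydrate. In mice the pathway is active in liver and adipose tissue and is known to be driven by insulin and carbohydrate feeding through SREBP-1c and ChREBP.

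Expression was given as FPKM, in which a gene's fragments are divided by its exon length and by the total of the library, so levels can be compared between genes. The total over the listed genes was 7628071 to 16637489 fragments, and each FPKM of the 10 genes was a whole number of fragments at its exon length. Fewer than 200 fragments in a library were counted only for *Scd2* in liver (7 to 142), *Elovl6* in muscle (11 to 34), *Aacs* in muscle (59 to 94) and in all 3 HSD libraries of liver (58, 72 and 128), *Elovl5* in 3 muscle libraries (141 to 176), *Thrsp* in 2 muscle libraries (116 and 184) and HS2L (186), and *Elovl6* in HS2L (161), HS2W (163) and HS5W (189). The marker lists of hepatocytes, adipocytes and skeletal muscle were each highest in their own tissue. The libraries also held markers of other cell types, of which those of most size are given here and others beside the results they moved with. In eWAT, 8 epididymal epithelium markers summed to 16770 FPKM in HS3W and to between 1.05 and 13.2 FPKM in the other 5 libraries. In liver, 8 skeletal muscle markers summed to 4435 FPKM in CON16L and to between 2.03 and 6.14 FPKM in the other 5. The sum of 5 blood markers was highest in mouse CON16 in each tissue, at 5626 FPKM in liver, 5667 FPKM in eWAT and 965 FPKM in muscle, against 237 to 842, 243 to 744 and 124 to 224 FPKM in the other libraries. Mitochondrially encoded genes took 25.7% to 60.8% of the fragments in the CON libraries of liver and 15.4% to 44.4% in the HSD libraries, against 3.52% to 5.11% in eWAT and 11.3% to 16.5% in muscle. The supplementary list of the study holds 15 of the 18 libraries, without CON16L, HS5L and HS5W, and gives no reason.

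The genes lie on 7 chromosomes of mouse build mm10. *Fasn* (chr11:120805846-120824547), *Acly* (chr11:100476353-100528000) and *Acaca* (chr11:84129672-84401651) share chromosome 11. *Scd1* (chr19:44394455-44407879) and *Scd2* (chr19:44293674-44306864) are neighbouring paralogs, between which reads could have been shared. *Acss2* (chr2:155517948-155585724) overlaps *Ggt7* and *Gss* on the opposite strand, *Acaca* overlaps *Gm11437* in the same way, and whether the counting used strand is not given in the sources used here. The others are *Elovl5* (chr9:77917364-77984519), *Elovl6* (chr3:129532355-129638495), *Thrsp* (chr7:97412938-97417730) and *Aacs* (chr5:125475814-125517410). RefSeq promoters (GRCm38.p6, 250 bases before to 50 bases after the start) were at hand for 8 of the 10 genes, all but *Scd1* and *Scd2*. The window of *Acaca* (chr11:84195188-84195487) lies well inside the gene, and the region before the gene start given above was not searched. The CCAAT box, searched as CCAAT on both strands, was found in 5 of the 8 (*Fasn*, *Acly*, *Acss2*, *Elovl5*, *Thrsp*) and in 37.4% of 32851 promoters. The GC box GGGCGG was found in 2 of the 8 (*Acly*, *Acss2*) against 35.7%, the E-box CACGTG in 1 (*Elovl5*) against 7.15%, and the exact sterol response element of the LDL receptor gene in 0 against 0.0913%. A match describes letters in these windows and shows no binding. The 150 bases before the RefSeq start are printed for *Fasn*, *Thrsp* and *Aacs*. *Fasn* and *Thrsp* had the lowest log2 fold changes of the 10 genes in eWAT and in liver. The estimates of *Aacs* in these tissues lay far apart. The printed bases of *Thrsp* lie inside the gene span given above, and those of *Aacs* run into it. Those of *Fasn* lie outside its span. CCAAT or its reverse complement is in capitals, with 3 matches in *Fasn*, of which a pair shares its middle bases, 2 in *Thrsp* and none in *Aacs*.
Fasn, chr11:120824548-120824697, minus strand: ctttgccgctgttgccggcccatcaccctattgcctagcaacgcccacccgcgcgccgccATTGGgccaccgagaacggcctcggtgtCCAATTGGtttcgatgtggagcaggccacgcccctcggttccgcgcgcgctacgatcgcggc
Thrsp, chr7:97417551-97417700, minus strand: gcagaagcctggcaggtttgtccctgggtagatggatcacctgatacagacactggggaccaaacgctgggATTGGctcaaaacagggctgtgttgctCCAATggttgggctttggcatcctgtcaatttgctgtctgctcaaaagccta
Aacs, chr5:125475723-125475872, plus strand: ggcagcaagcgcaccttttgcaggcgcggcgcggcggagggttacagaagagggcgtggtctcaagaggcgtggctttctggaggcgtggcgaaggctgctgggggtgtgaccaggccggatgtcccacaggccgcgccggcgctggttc

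On the control diet and by FPKM, 8 of the 10 genes were highest in eWAT, 2 (*Elovl5* and *Elovl6*) were highest in liver, and 9 were lowest in muscle, with *Scd2* lowest in liver (with the median-ratio scaling used for the tissue contrasts, *Acss2* was also called higher in liver than in eWAT). *Scd1* led in every tissue, with means of 4588 ± 246 FPKM for eWAT, 357 ± 173 FPKM for liver and 38.6 ± 17.7 FPKM for muscle (± SD, n = 3). *Fasn* (531 ± 183 FPKM) and *Thrsp* (529 ± 188 FPKM) came next in eWAT with overlapping ranges, followed by *Acly* (151 ± 55.2 FPKM), *Scd2* (81.8 ± 17.1 FPKM), *Aacs* (63.9 ± 4.48 FPKM), *Acaca* (52.8 ± 9.94 FPKM), *Elovl5* (34.4 ± 3.85 FPKM), *Acss2* (10.7 ± 2.10 FPKM) and *Elovl6* (7.92 ± 2.13 FPKM). Within this order, *Acly* to *Acaca* overlapped each with the next, and so did *Acss2* with *Elovl6*. In liver, *Thrsp* (120 ± 29.9 FPKM), *Elovl5* (61.0 ± 20.5 FPKM) and *Fasn* (44.0 ± 14.6 FPKM) followed *Scd1*, and the ranges of *Elovl5* and *Fasn* overlapped. *Acly* (22.5 ± 10.3 FPKM), *Aacs* (15.4 ± 9.91 FPKM), *Elovl6* (10.8 ± 5.24 FPKM) and *Acss2* (7.82 ± 2.09 FPKM) formed a run of overlapping neighbours above *Acaca* (3.81 ± 0.391 FPKM). The last was *Scd2*, at 0.192, 2.24 and 0.360 FPKM in CON14L, CON16L and CON72L. Its highest liver value was in CON16L, the library with the skeletal muscle markers, and the part of those markers in it was not tested. In muscle, *Scd2* was second at 13.0 ± 0.574 FPKM, and the others lay between 10.8 ± 2.22 FPKM (*Thrsp*) and 0.391 ± 0.0491 FPKM (*Elovl6*).

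The 2 stearoyl-CoA desaturases therefore stood in different proportions. The 6 liver libraries had a ratio of *Scd1* to *Scd2* FPKM of 123 to 1542, those of eWAT 6.37 to 193 and those of muscle 1.30 to 5.84. In eWAT it was 50.9 to 70.5 in the CON libraries, 193 in HS2W, 192 in HS5W and 6.37 in HS3W. All 3 CON values lay between HS3W and the other 2 HSD libraries.

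Tissues were compared in 1 limma model of all 18 libraries, on log2(FPKM + 0.5), and a gene was called at an adjusted p under 0.05 over all genes tested and an absolute log2 difference of at least 1. Between eWAT and liver of CON mice, 7 of the 10 genes were called, all higher in eWAT, where 67.4% of all 13067 genes tested were called and 60.4% were higher in eWAT. The log2 difference was 6.11 ± 0.73 for *Scd2* (estimate ± SE, adjusted p = 1.38e-06), 3.79 ± 0.59 for *Scd1* (adjusted p = 2.34e-05), 3.61 ± 0.30 for *Acaca* (adjusted p = 2.09e-08) and 3.56 ± 0.52 for *Fasn* (adjusted p = 1.09e-05). *Acss2* (0.45), *Elovl6* (−0.36) and *Elovl5* (−0.76) were not called. The median log2 difference of all genes between eWAT and liver was 1.33, and after median-ratio scaling it was 0.01. With that scaling 5 members were called higher in eWAT (*Scd2*, *Scd1*, *Acaca*, *Fasn* and *Acly*), 3 were called lower in eWAT (*Elovl5*, −2.38, *Elovl6*, −1.90, and *Acss2*, −1.10), and *Aacs* and *Thrsp* were not called. Relative to the typical gene, the members therefore split between the tissues. *Elovl5* and *Elovl6* were lower in eWAT with both scalings and, of these 2 fits, were called only in the median-ratio one. Over 31 alternative fits of this contrast, *Elovl5* was called in 5 and *Elovl6* in 1. *Acss2* changed sign between these 2 fits, and *Aacs* and *Thrsp* were called in the first but not with median-ratio scaling. Over the 31 alternatives, *Aacs* was called in 29 and *Thrsp* in 28. With mitochondrially encoded genes left out, 5 members were called higher in eWAT and 1 lower. With the rest rescaled by fragments, it was 6 and 1.

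Against muscle, all 10 genes were called higher in eWAT (53.3% of genes called, 45.4% higher in eWAT), from 1.47 ± 0.21 for *Acss2* to 6.96 ± 0.59 for *Scd1* on the log2 scale. With median-ratio scaling this was 8 of 10. Between liver and muscle, 9 were called (48.4% of genes called, 14.5% higher in liver). 8 were higher in liver, and *Scd2* was lower in liver by a log2 difference of −3.52 ± 0.73 (adjusted p = 0.000524). *Acaca*, at 0.85, was under the fold threshold. The median of all genes between liver and muscle was −0.48, and with median-ratio scaling all 10 were called, 9 of them higher in liver and *Scd2* lower.

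**Figure D1:**
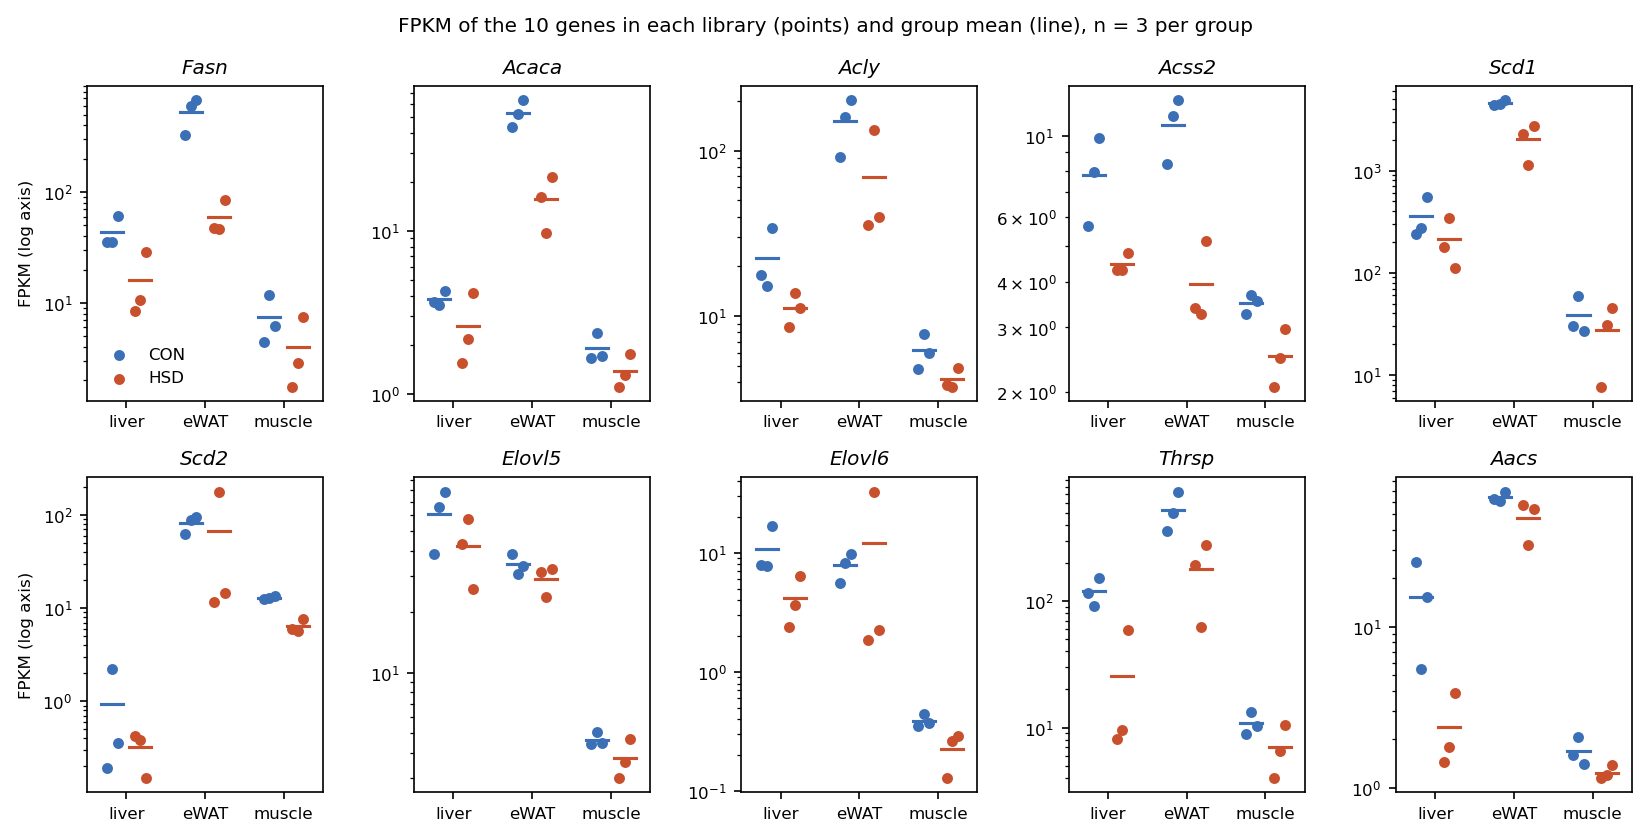
FPKM of each of the 10 genes on log axes, by tissue, with 1 point for each library, blue for CON and red for HSD, and lines at the group means (n = 3). The high HSD points of *Scd2* (178 FPKM), *Elovl6* (32.6 FPKM) and *Acly* (134 FPKM) in eWAT all belong to HS3W, and the *Scd2* panel shows the liver below the muscle.

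In eWAT, the mean FPKM was lower with HSD for 9 of the 10 genes and higher for *Elovl6*, and *Fasn* had the lowest log2 fold change of the 10. Fold changes are those of limma on the log2(FPKM + 0.5) scale, given with their SE. *Fasn* was at 324, 596 and 673 FPKM in CON16W, CON71W and CON72W, and at 47.2, 46.5 and 85.5 FPKM in HS2W, HS3W and HS5W. The HSD mean was 11.2% of the CON mean, and the highest HSD library was below the lowest CON library. Its log2 fold change was −3.13 ± 0.37, with an adjusted p of 0.0884. *Acaca*, which supplies malonyl-CoA to *Fasn*, stood at 43.2, 51.9 and 63.1 FPKM against 16.2, 9.69 and 21.4 FPKM (−1.76 ± 0.30, adjusted p = 0.120). *Acss2* was at 8.39, 11.3 and 12.5 FPKM in CON and at 3.38, 3.26 and 5.16 FPKM in HSD (−1.35 ± 0.22, adjusted p = 0.114). The groups of both genes were apart. The desaturase *Scd1* was at 4393, 4507 and 4864 FPKM in CON and at 2257, 1131 and 2757 FPKM in HSD (−1.26 ± 0.43, adjusted p = 0.248). *Thrsp* was at 360, 497 and 731 FPKM in CON and at 194, 62.8 and 278 FPKM in HSD (−1.75 ± 0.59, adjusted p = 0.245). For both, HS3W was the lowest library, and the groups did not overlap. *Aacs* differed less, with 62.0, 60.7 and 69.0 FPKM in CON and 57.0, 32.1 and 53.9 FPKM in HSD (−0.46 ± 0.23, adjusted p = 0.367). *Elovl5* had overlapping groups, at 30.9 to 38.5 FPKM in CON and 23.6 to 32.4 FPKM in HSD (−0.24 ± 0.16, adjusted p = 0.466).

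The other 3 members were high in HS3W. *Scd2* was at 62.3, 88.5 and 94.5 FPKM in CON, and at 11.7, 178 and 14.4 FPKM in HS2W, HS3W and HS5W. *Elovl6* was at 5.63, 8.26 and 9.86 FPKM in CON, and at 1.86, 32.6 and 2.25 FPKM in HSD, so that its HSD mean was 154% of the CON mean. *Acly* was at 91.9, 160 and 201 FPKM in CON, and at 35.6, 134 and 39.7 FPKM in HSD. For each, HS2W and HS5W were below every CON library, while HS3W was above every CON library for *Scd2* and *Elovl6* and within the CON range for *Acly*. The level in HS3W was 13.6 times the mean of the other 2 HSD libraries for *Scd2*, 15.9 times for *Elovl6* and 3.56 times for *Acly*. For the other 7 genes this ratio was between 0.267 (*Thrsp*) and 0.764 (*Acss2*). Over all 6 libraries the log2 fold changes were −1.35 ± 1.04 for *Scd2*, −0.46 ± 1.03 for *Elovl6* and −1.31 ± 0.58 for *Acly* (adjusted p = 0.514, 0.815 and 0.323 by limma).

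By limma, 0 of the 10 genes were called in eWAT (0% of the 13740 genes tested were called), and voom on the recovered fragments also called 0. 5 of the 10, *Fasn*, *Acaca*, *Acss2*, *Thrsp* and *Scd1*, had an unadjusted p under 0.05, and 7.55% of all genes were lower with HSD at that p. The log2 fold change was below 0 for 10 of 10 genes (40.9% of all genes), with a median of −1.33 against 0.08 over all genes. Every HSD library was below every CON library for 6 of 10 genes (12.4% of all genes). Without HS3W, 6 of the 10 were called, where 1.21% of 13245 genes were called and 0.989% were called lower. *Scd2* fell by 2.59 on the log2 scale (adjusted p = 0.0212), *Fasn* fell by 2.99 (adjusted p = 0.0227), *Acaca* fell by 1.46 (adjusted p = 0.0228), *Elovl6* fell by 1.69 (adjusted p = 0.0243), *Acly* fell by 1.92 (adjusted p = 0.0310) and *Acss2* fell by 1.24 (adjusted p = 0.0344). *Scd1* (−0.88, adjusted p = 0.0300) was under the fold threshold, and *Thrsp* (−1.13, adjusted p = 0.0843), *Aacs* (−0.20) and *Elovl5* (−0.10) were not called. The groups were then apart for 9 of 10 genes, with *Elovl5* as the exception, against 20.5% of all genes.

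Several marker lists also differed between the eWAT groups. The 8 adipocyte markers summed to between 16379 and 17534 FPKM in CON, to 21690 in HS2W and 22941 in HS5W, and to 7042 in HS3W. The 8 epididymal epithelium markers were all at 1 FPKM or more in HS3W, led by *Lcn8* (5972 FPKM) and *Crisp1* (5109 FPKM), and at most 2 of them were in any other HSD library. The sum of 8 hepatocyte markers was 89.1 to 261 FPKM in CON and 4.35 to 12.7 FPKM in HSD, that of 8 skeletal muscle markers 11.8 to 20.1 FPKM and 33.7 to 49.3 FPKM, that of 6 macrophage markers 373 to 566 FPKM and 159 to 353 FPKM, and that of 6 male germ cell markers 0.189 to 40.7 FPKM and 33.0 to 531 FPKM. The part of these cell types in the levels of the 10 genes was not tested. Over all libraries, 7 of the 8 adipocyte markers had a log2 fold change below 0, with a median of −0.54 against 0.08 for all genes. Without HS3W, 4 of the 8 were below 0 and their median was −0.01. In HS2W and HS5W the mean of *Fasn* was 0.125 times, that of *Scd2* 0.159 times, that of *Acly* 0.249 times and that of *Elovl6* 0.259 times the CON mean, against 0.868 times for *Aacs* and 0.930 times for *Elovl5*.

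**Figure D2:**
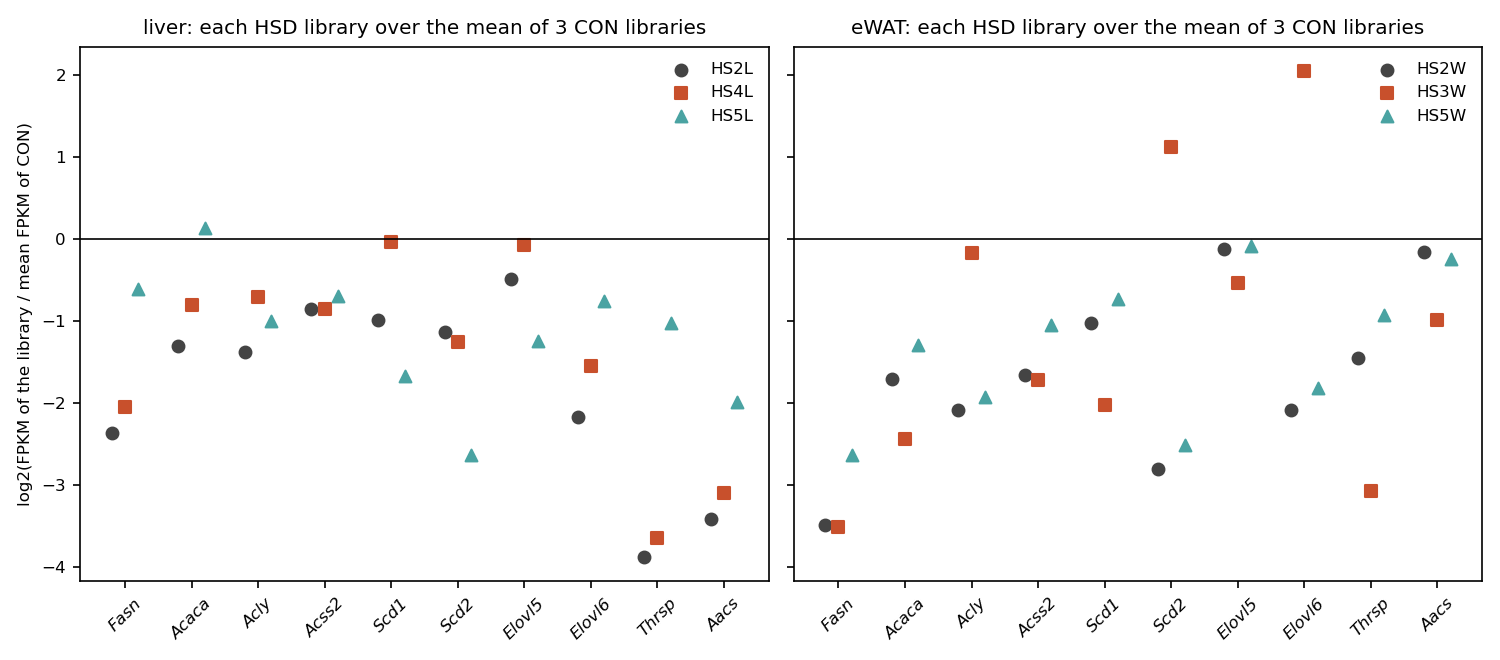
Log2 ratio of the FPKM of each HSD library to the mean of the 3 CON libraries, in liver (left) and eWAT (right), with 1 symbol for each HSD library and the line at equal levels. In eWAT, HS3W lies above the line for *Scd2* and *Elovl6* and below the other 2 libraries for the 7 genes other than these and *Acly*, and in liver HS5L lies nearest to the line for *Fasn*, *Thrsp*, *Elovl6* and *Aacs* and farthest below it for *Scd1*, *Scd2* and *Elovl5*.

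In liver, *Thrsp* and *Aacs* had the lowest log2 fold changes of the 10 genes. *Thrsp* was at 117, 91.2 and 151 FPKM in CON14L, CON16L and CON72L, and at 8.15, 9.55 and 58.6 FPKM in HS2L, HS4L and HS5L (−2.77 ± 0.73, adjusted p = 0.764). *Aacs*, the enzyme that takes acetoacetate into lipid synthesis, was at 25.3, 5.44 and 15.4 FPKM in CON and at 1.44, 1.80 and 3.89 FPKM in HSD (−2.32 ± 0.57, adjusted p = 0.764). The groups were apart for both, and HS5L was the highest HSD library for both. *Fasn* was at 35.4, 35.7 and 60.8 FPKM in CON and at 8.53, 10.6 and 28.7 FPKM in HSD (−1.59 ± 0.50, adjusted p = 0.764). *Elovl6* was at 7.85, 7.69 and 16.8 FPKM in CON and at 2.40, 3.67 and 6.40 FPKM in HSD (−1.28 ± 0.43, adjusted p = 0.764). Here too the groups were apart and HS5L was the highest of the HSD libraries. *Acly* (15.3 to 34.2 FPKM in CON, 8.62 to 13.8 FPKM in HSD, −0.91 ± 0.38) and *Acss2* (5.66 to 9.83 FPKM in CON, 4.30 to 4.80 FPKM in HSD, −0.71 ± 0.26) also had groups that were apart.

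The other 4 genes overlapped between the diets in liver. *Acaca* was at 3.69, 3.50 and 4.25 FPKM in CON and at 1.54, 2.17 and 4.17 FPKM in HSD (−0.55 ± 0.32), with HS5L inside the CON range. *Scd1* was at 239, 276 and 555 FPKM in CON and at 179, 346 and 111 FPKM in HSD (−0.80 ± 0.57). *Elovl5* was at 38.5, 66.2 and 78.4 FPKM in CON and at 43.3, 57.8 and 25.8 FPKM in HSD (−0.54 ± 0.45). For *Scd1* and *Elovl5*, HS5L was the lowest of the HSD libraries, the opposite of its place for *Thrsp* and *Fasn*. *Scd2* was at 0.422, 0.388 and 0.150 FPKM in HSD (−0.54 ± 0.52, adjusted p = 0.774), and CON16L alone was above these values.

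By limma, 0 of the 10 genes were called in liver (0% of 10317 genes tested were called), and voom on the recovered fragments called 0. 6 had an unadjusted p under 0.05, and 1.96% of all genes were lower with HSD at that p. The log2 fold change was below 0 for 10 of 10 genes (37.3% of all genes), and every HSD library was below every CON library for 6 of 10 (3.47% of all genes). With the libraries that the study lists, *Thrsp* fell by 3.84 on the log2 scale and *Aacs* fell by 3.26 (adjusted p = 0.0131 for each), and these 2 were called among 0.351% of 9970 genes, with 0.15% called lower. In that fit, groups were apart for 7 of the 9 genes tested (19.3% of all genes), and *Fasn* (−2.23, adjusted p = 0.0574) and *Elovl6* (−1.79, adjusted p = 0.0590) were just outside the threshold. The liver libraries left out of it, CON16L and HS5L, were the lowest CON and the highest HSD library for both *Thrsp* and *Aacs*. Mitochondrially encoded genes took 60.8% and 37.8% of the fragments in CON14L and CON72L, which were kept, against 16.3% and 15.4% in HS2L and HS4L. The part of this share in the calls was not tested. Without CON16L alone or HS5L alone, 0 were called, at −2.95 and −3.66 for *Thrsp* and −2.91 and −2.67 for *Aacs*.

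The HSD library with the high mitochondrial share, HS5L (44.4%), was also the one whose *Thrsp* (6.62 times the mean of HS2L and HS4L), *Fasn* (2.99 times), *Aacs* (2.40 times), *Acaca* (2.24 times) and *Elovl6* (2.11 times) were highest. Its *Scd1* (0.425 times), *Scd2* (0.370 times) and *Elovl5* (0.511 times) were lowest. In CON14L, CON16L and CON72L the share was 60.8%, 25.7% and 37.8%. *Aacs* had the same order in these CON libraries, while *Fasn*, *Thrsp*, *Acaca* and *Elovl6* were highest in CON72L. The 6 macrophage markers summed to 22.6 to 35.7 FPKM in the CON libraries of liver and to 10.3 to 19.7 FPKM in the HSD libraries. The blood markers summed to 471, 5626 and 842 FPKM in CON and to 272, 237 and 664 FPKM in HSD, with 5 of 5 log2 fold changes below 0 and a median of −1.85. The 8 hepatocyte markers summed to 12019 FPKM in CON14L and 26178 FPKM in HS5L, against 45408 to 61761 FPKM in the other 4, with 1 of 8 below 0 and a median of 0.88. The part of the mitochondrial share and of these cells in the levels was not tested. The median log2 fold change in liver was −0.85 for the 10 genes and 0.13 for all genes. After the mitochondrially encoded genes were left out and the rest rescaled, the medians were −1.41 and −0.37, so that the difference between the 2 medians was −0.98 with them and −1.04 without them, and 0 of the 10 were called in both fits.

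In muscle, the median log2 fold change of the 9 members tested was −0.51, the nearest to 0 of the 3 tissues, and that of all genes was −0.06. *Scd2* was at 12.5, 12.9 and 13.6 FPKM in CON16M, CON71M and CON72M, and at 5.91, 5.72 and 7.67 FPKM in HS2M, HS3M and HS5M. The groups were apart with narrow spread, and the log2 fold change of −0.97 ± 0.13 had an adjusted p of 0.0193, just under the fold threshold. It was the 1 member with an adjusted p under 0.05 in its tissue, which 0.895% of the genes in muscle had. *Acss2* was at 3.27, 3.67 and 3.55 FPKM in CON and at 2.07, 2.48 and 2.97 FPKM in HSD (−0.42 ± 0.14, adjusted p = 0.185). *Aacs* was at 1.61, 2.06 and 1.42 FPKM in CON and at 1.15, 1.20 and 1.38 FPKM in HSD (−0.32 ± 0.15, adjusted p = 0.318). Both had groups that were apart. *Fasn* was at 4.47, 11.8 and 6.22 FPKM in CON and at 1.76, 2.89 and 7.39 FPKM in HSD (−0.92 ± 0.44, adjusted p = 0.335). *Thrsp* was at 8.89, 13.2 and 10.3 FPKM in CON and at 3.98, 6.47 and 10.5 FPKM in HSD (−0.67 ± 0.28, adjusted p = 0.286). For these 2 genes, HS5M was inside the CON range. *Scd1* was at 30.0, 59.0 and 26.8 FPKM in CON and at 7.71, 30.5 and 44.8 FPKM in HSD (−0.70 ± 0.54), so that its groups overlapped while those of *Scd2* did not.

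The other muscle values were *Acly* at 4.83 to 7.85 FPKM in CON and 3.76 to 4.89 FPKM in HSD (−0.51 ± 0.18), *Elovl5* at 4.41 to 5.11 FPKM and 3.01 to 4.67 FPKM (−0.29 ± 0.16) and *Acaca* at 1.66 to 2.38 FPKM and 1.11 to 1.76 FPKM (−0.35 ± 0.17). *Elovl6* was at 0.352 to 0.446 FPKM in CON and 0.128 to 0.288 FPKM in HSD and was not tested, since its mean was under 0.5 FPKM. By limma, 0 of the 9 genes tested were called (0.323% of 10834 genes tested were called), and 4 had an unadjusted p under 0.05, against 12% of all genes that were lower at that p. The log2 fold change was below 0 for 9 of 9 (60.8% of all genes), and the groups were apart for 3 of 9 (15.6% of all genes). With voom on the recovered fragments, 1 of the 9 was called, *Scd2* (−1.03, adjusted p = 0.00608). The 8 adipocyte markers summed to 128, 219 and 116 FPKM in CON16M, CON71M and CON72M, and to 81.6, 288 and 235 FPKM in HS2M, HS3M and HS5M. HS2M was the lowest muscle library for these markers and for *Fasn*, *Scd1* and *Thrsp*, and CON71M was the highest CON library for the same, while HS3M had the highest marker sum and was below every CON library for *Fasn* and *Thrsp*. The macrophage marker sum was 35.4 to 64.3 FPKM in CON and 27.2 to 31.3 FPKM in HSD, and 5 of 5 blood markers had a log2 fold change below 0 (median −1.07). The part of these cells in the muscle values was not tested.

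**Figure D3:**
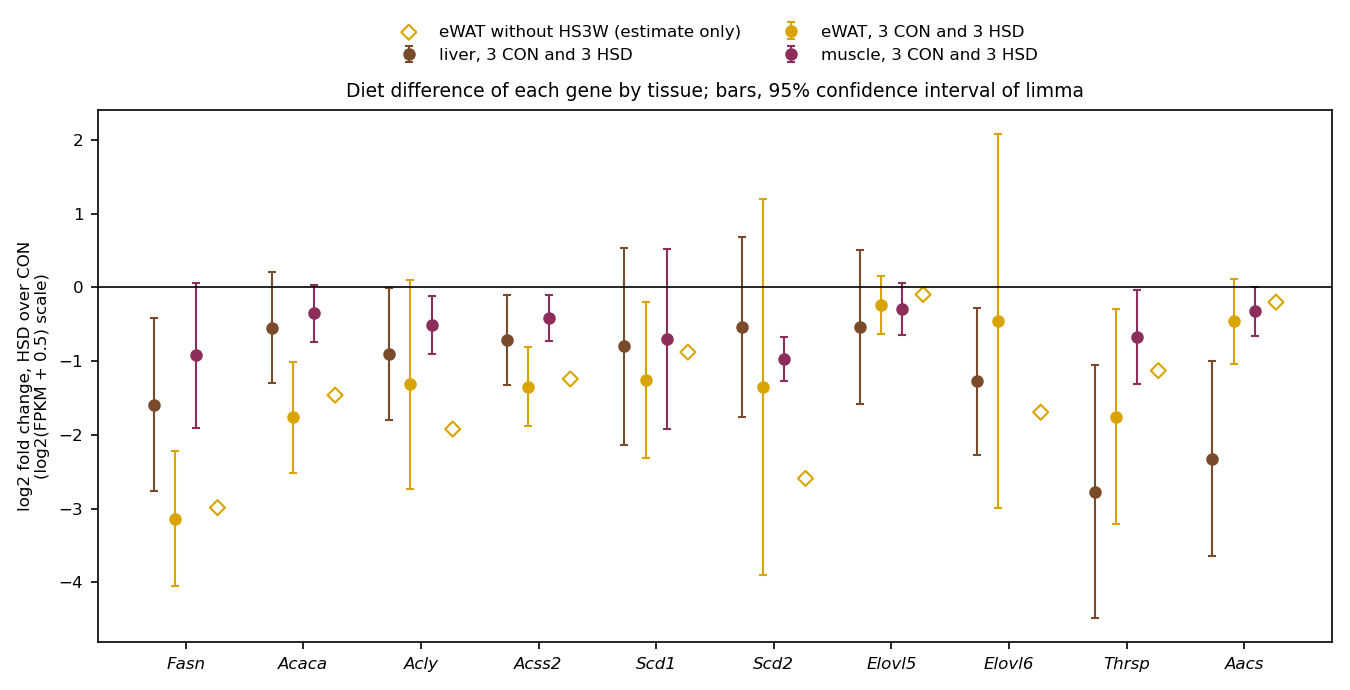
Log2 fold change of HSD over CON on the log2(FPKM + 0.5) scale for each gene in liver, eWAT and muscle, with bars for the 95% confidence interval of limma and open diamonds for eWAT without HS3W. The eWAT estimate of *Fasn* (−3.13) is the lowest of all, *Thrsp* (−2.77) and *Aacs* (−2.32) are lowest in liver, and the intervals of *Scd2* and *Elovl6* in eWAT are the widest.

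The size of the diet effect was compared between tissues as a difference of log2 fold changes. For 9 of the 9 genes tested in all 3 tissues the estimate was below 0 in each (10.5% of 9001 genes). By limma, 0 of 10 differences were called between eWAT and liver (0.758% of 13067 genes called), 0 of 10 between eWAT and muscle (0%) and 0 of 10 between liver and muscle (0.0612%), and voom also called 0 in each. At an unadjusted p under 0.05 by limma there were 3 (*Acaca*, *Aacs*, *Acss2*), 3 (*Fasn*, *Acaca*, *Acss2*) and 2 (*Thrsp*, *Aacs*), and 13.7%, 7.997% and 7.95% of all genes. The effect on *Fasn* was lower in eWAT than in liver by −1.55 (95% confidence interval −3.10 to 0.01, adjusted p = 0.365) and than in muscle by −2.21 (−3.77 to −0.66, adjusted p = 0.432). That on *Acaca* was lower in eWAT than in liver by −1.22 (−2.11 to −0.33, adjusted p = 0.222) and than in muscle by −1.41 (−2.30 to −0.52, adjusted p = 0.353). *Aacs* was placed the other way, with a difference of 1.86 between eWAT and liver (0.62 to 3.10, adjusted p = 0.188) and of −1.997 between liver and muscle (−3.24 to −0.76, adjusted p = 0.316). *Thrsp* had a difference of −2.10 between liver and muscle (−4.04 to −0.16, adjusted p = 0.583) and of 1.02 between eWAT and liver (−0.92 to 2.95, adjusted p = 0.585). None of these passed the threshold, and the intervals leave room for differences of more than 2 log2 units.

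With the 15 libraries of the study, 2 differences were called between eWAT and liver, *Aacs* (2.69, adjusted p = 0.00162) and *Acaca* (−1.08, adjusted p = 0.0458). 1 was called between eWAT and muscle (*Acaca*, −1.66, adjusted p = 0.0314), and 2 between liver and muscle (*Aacs*, −2.94, adjusted p = 0.00205, and *Thrsp*, −3.17, adjusted p = 0.0121). Of the libraries left out, CON16L was the lowest CON and HS5L the highest HSD library of liver for *Aacs*, *Thrsp* and *Acaca*. HS5W was the highest HSD library of eWAT for *Acaca*. Without CON16L alone, *Aacs* was called between eWAT and liver (2.45, adjusted p = 0.0133) and between liver and muscle (−2.59, adjusted p = 0.0278), and without HS5L alone between eWAT and liver (2.21, adjusted p = 0.0436). For the other members (*Fasn*, *Acly*, *Acss2*, *Scd1*, *Scd2*, *Elovl5* and *Elovl6*) no difference between tissues was called in any of these fits. Over all libraries the intervals for *Elovl5* were −0.58 to 1.17 between eWAT and liver and −0.82 to 0.93 between eWAT and muscle.

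Together, the 10 genes took 2.79% to 3.60% of the fragments in the CON libraries of eWAT and 0.847% to 1.61% in the HSD libraries, with HS3W the lowest. *Scd1* alone was 2.15% to 2.38% in CON and 0.553% to 1.35% in HSD. In liver the share was 0.231% to 0.451% in CON and 0.128% to 0.222% in HSD, and in muscle 0.0394% to 0.0665% and 0.0174% to 0.0475%. The mean deviation of the 10 genes from their tissue mean, on the log2(FPKM + 0.5) scale, was 0.38 to 0.97 in CON and −0.94 to −0.28 in HSD libraries of liver, and 0.35 to 0.92 and −0.93 to −0.43 in eWAT. In muscle it was 0.09 to 0.56 in CON and −0.68 to 0.14 in HSD. HS5M (0.14) lay between CON16M (0.09) and CON72M (0.18). By this mean deviation, the library of HS2 was the lowest HSD library in each tissue. In eWAT, HS2W was at −0.93 and HS3W at −0.43, while HS3W had the lower share of fragments. Among the HSD mice, only HS2 and HS5 gave all tissues.

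**Figure D4:**
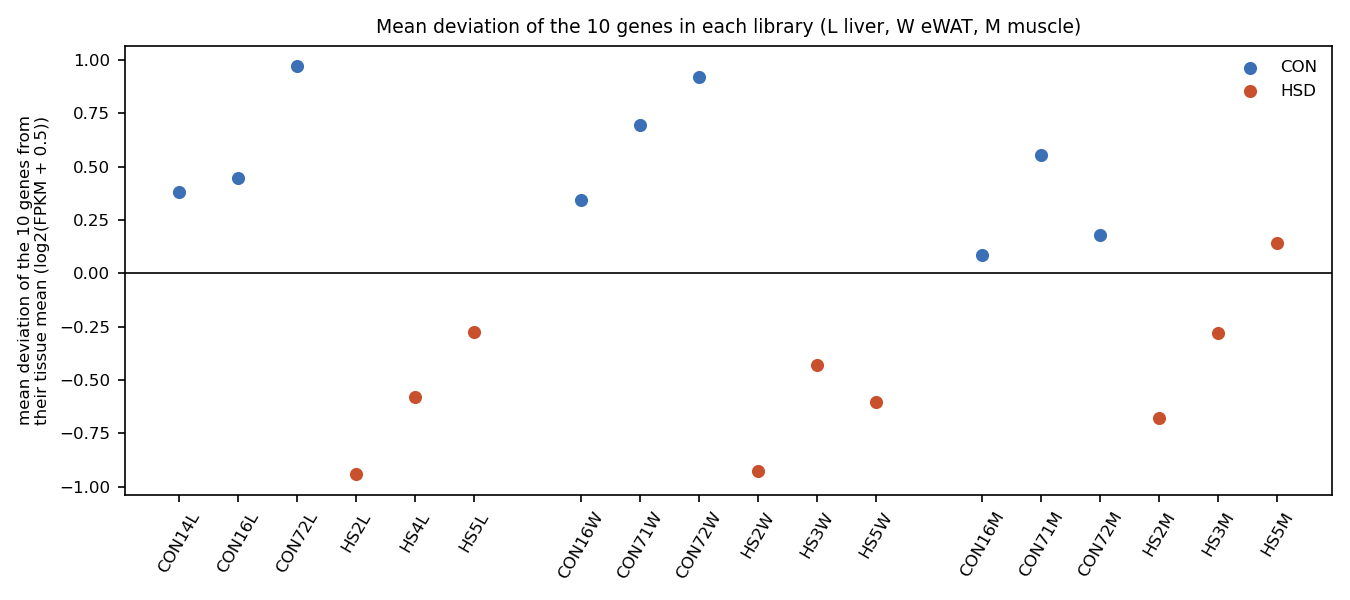
Mean deviation of the 10 genes from their mean in the tissue, on the log2(FPKM + 0.5) scale, for each of the 18 libraries, blue for CON and red for HSD. CON and HSD libraries lie on opposite sides of 0 in liver and eWAT, and in muscle HS5M (0.14) lies among the CON libraries.

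Over the 18 libraries, each centred on its tissue mean, *Fasn* and *Acss2* followed the mean of the other members most closely (Pearson's r = 0.915 and 0.905), then *Acly* (0.798), *Acaca* (0.764), *Thrsp* (0.758), *Scd1* (0.662) and *Aacs* (0.543). *Elovl5* (0.454), *Elovl6* (0.449) and *Scd2* (0.396) were lowest, and without HS3W *Elovl6* was at 0.849 and *Scd2* at 0.614. These values describe the libraries, which share mice and the diet difference, and no test was made. Of 7313 other genes with a mean of at least 1 FPKM in every tissue, those most like the mean profile of the members were *Isg15* (r = 0.898), *Insig1* (0.898), *Ifit1* (0.875), *Ifit3* (0.862), *Pgd* (0.857), *Eif2ak2* (0.831), *Dhcr7* (0.825), *Mvk* (0.823), *S100a11* (0.815) and *Hmgcs1* (0.804).

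The rest of the pathway was read from gene lists that hold no member. Among 7 genes of acetyl-CoA and malonyl-CoA supply, 0 were called by limma in any tissue. In liver, eWAT and muscle, 5, 6 and 6 were tested, and 1, 1 and 2 had an unadjusted p under 0.05. At that p, 1.96%, 7.55% and 12% of all genes were lower with HSD. The counts of this list and of those below take both directions, while these shares leave out genes that were higher. The shares are therefore not a like measure for the counts. In muscle the 2 were *Mlycd* and *Acss1*, both higher with HSD. *Slc25a1*, the carrier that brings citrate to the cytosol, was at 163 ± 13.0 FPKM in CON and 71.1 ± 25.2 FPKM in HSD of eWAT (−1.25 ± 0.28, adjusted p = 0.152). *Acacb*, the acetyl-CoA carboxylase at the mitochondrial membrane, was at 6.38, 6.49 and 5.10 FPKM in CON and at 0.319, 0.390 and 0.838 FPKM in HSD of liver (−2.70 ± 0.25, adjusted p = 0.0918). In eWAT its level was 17.4 ± 2.38 FPKM in CON and 24.9 ± 10.3 FPKM in HSD, so that its estimate (0.42 ± 0.35) and that of *Acaca* had opposite signs there. With the libraries of the study, *Acacb* fell in liver by 2.86 on the log2 scale (adjusted p = 0.00760). *Mlycd*, which breaks down malonyl-CoA, was at 22.9 ± 1.34 FPKM in CON and 36.6 ± 4.04 FPKM in HSD of muscle (0.66 ± 0.12, adjusted p = 0.0453, under the fold threshold). *Mlycd* in liver (0.81 ± 0.43) and *Acss1*, which makes acetyl-CoA from acetate in mitochondria, in muscle (0.61 ± 0.14, adjusted p = 0.0804) were not called.

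Of 6 other desaturases, 4 were tested in each tissue, and 1 was called, in muscle, where 0.323% of all genes were called. *Fads6* fell in muscle, from 3.49, 4.23 and 2.65 FPKM in CON to 1.82, 1.01 and 1.14 FPKM in HSD (−1.13 ± 0.20, adjusted p = 0.0430). In liver it was at 5.91 ± 0.770 FPKM in CON and 8.74 ± 2.35 FPKM in HSD (0.50 ± 0.28). *Fads2*, the delta-6 desaturase of polyunsaturated fatty acids, was at 8.43 to 16.7 FPKM in CON of eWAT and at 13.4, 217 and 8.47 FPKM in HS2W, HS3W and HS5W, the same placing of HS3W as for *Scd2* and *Elovl6*. *Fads6* was likewise at 7.98 FPKM in HS3W and at 0.942 to 1.84 FPKM in the other eWAT libraries. The log2 fold change of *Fads1*, the delta-5 desaturase, was 0.46 ± 0.57 in liver and −0.45 ± 0.17 in muscle, and it was not called.

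Of 11 further elongation genes, 8, 10 and 6 were tested in liver, eWAT and muscle, and 0 were called by limma, with 0, 3 and 1 at an unadjusted p under 0.05. *Elovl2* was at 17.1, 56.7 and 51.0 FPKM in CON and at 118, 131 and 46.5 FPKM in HSD of liver (1.27 ± 0.61, adjusted p = 0.764), an estimate of the opposite sign to those of *Elovl5* and *Elovl6*. In eWAT, *Elovl4* and *Elovl2* were high only in HS3W, at 12.7 and 8.14 FPKM, against at most 0.0993 and 1.27 FPKM in the other libraries. *Hsd17b12* in liver (0.57 ± 0.73) and in muscle (−0.23 ± 0.20) and *Elovl1* in muscle (−0.41 ± 0.17) did not pass the test.

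In the lists of fatty acid activation (5 genes), mitochondrial fatty acid synthesis (6 genes, 5 of them in the table) and regulators (12 genes), 0 were called by limma in each tissue. At an unadjusted p under 0.05 there were 0 of the first list, 1 of the second (in muscle) and 2 of the third (in eWAT). *Acsl4* was at 42.1 FPKM in HS3W and at 6.58 to 8.11 FPKM in the other eWAT libraries. *Oxsm* was at 5.11 ± 0.166 FPKM in CON and 3.22 ± 0.576 FPKM in HSD of muscle (−0.60 ± 0.14, adjusted p = 0.0815). *Insig1*, which retains the SREBP precursors in the endoplasmic reticulum and is itself an SREBP target, was at 52.3, 66.7 and 63.2 FPKM in CON and at 33.9, 36.4 and 37.5 FPKM in HSD of eWAT (−0.75 ± 0.12, adjusted p = 0.114). HS3W lay between the other 2 HSD libraries for *Insig1*. In liver, *Insig1* was at 87.4, 97.5 and 97.0 FPKM in CON and at 57.6, 63.8 and 77.2 FPKM in HSD (−0.51 ± 0.33, adjusted p = 0.764), with the groups apart. The other genes of these lists with the largest estimates were *Acsl3* (0.33 in eWAT, −0.50 in liver), *Acsl1* (0.48 in liver, −0.15 in muscle), *Acsl4* (−0.17 in muscle), *Oxsm* (−0.34 in eWAT), *Mecr* (−0.36 in eWAT, −0.15 in liver), *Cbr4* (0.51 in liver), *Ndufab1* (−0.15 in muscle), *Insig2* (0.64 in liver), *Scap* (0.50 in eWAT), *Usf1* (0.15 in muscle) and *Mlxipl* (−0.15 in muscle), as log2 fold changes, and none was called. The regulators had a median log2 fold change of 0.16 (liver), 0.10 (eWAT) and −0.01 (muscle), against 0.13, 0.08 and −0.06 over all genes.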

How the data were processed

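FPKM of 18 mouse libraries were used as deposited. The paper names cuffdiff with an Ensembl annotation as the source of FPKM, after adapter trimming (cutadapt) and hisat2 alignment to mm10. The submitters' processing notes also name HTSeq (version 0.9.1) and mm9, so the sources differ on the counting tool and the build. The release of the annotation, filters and strandedness of counting are not given in the sources used here. FPKM times exon length (GENCODE M21) and library total gave whole fragments (within 0.02) in all libraries for 97.6% of 18776 genes above 0.

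limma (version 3.58.1, R 4.3.3; lmFit, eBayes with trend) was run on log2(FPKM + 0.5), where a gene's mean reached 0.5 FPKM, in each tissue alone for diet and over all 18 libraries for contrasts between tissues. This scale understates the change of low genes. Adjusted p-values are Benjamini-Hochberg over all genes tested and 2-sided, and the thresholds (0.05 and an absolute log2 difference of 1) are those of the study. Within a tissue these p-values measure the spread between mice. The fits over all 18 libraries took the libraries as independent, though most mice gave several tissues. With mouse as a random block (correlation within mouse 0.022), 7 members were called between CON eWAT and liver. Between CON eWAT and muscle it was 10, and between CON liver and muscle 9, as without the block. An exact permutation test of 3 against 3 cannot go below 0.1. Count models were not used on FPKM. The fits were tested on simulated data.

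The members and lists were chosen with earlier results of these data known. Values are given for all 10 members, for list genes called in a tissue, for the 2 list genes of each list and tissue with the largest absolute log2 fold change and a mean of at least 1 FPKM, and for the 10 genes most like the members.

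Replicate numbers are shared by CON and HSD libraries of different mice. In muscle, deviations from group means correlated across genes between libraries of the same number (r = 0.383, 0.177 and 0.184), so the replicate block is given in the closing section. In liver (−0.473, 0.395, −0.213) and eWAT (−0.197, 0.061, 0.414) the values differed in sign between the pairs. Alternatives were pseudocounts of 0.1 and 1, other filters, median-ratio and quantile scaling, mitochondrially encoded genes left out (also rescaled by fragments, chosen after seeing the data), arrayWeights, replicate and mouse blocks, all tissues in 1 fit, voom on recovered fragments, the study's libraries and each library left out. Figures used matplotlib 3.10.9.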

Additional observations from a re-analysis of the deposited data

How the results depend on the processing

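The members' log2 fold changes within tissues kept their sign and their side of the threshold 163 times with a library left out (7 passed it, 3 changed sign) and 339 times in other alternatives (25 and 2), and the differences between tissues 516 times (3 and 21) and 364 times (11 and 15). Counts of members called depended most on the weighting of libraries and on the libraries used. In liver, 0 members were called, but 8 with arrayWeights (all except *Scd2* and *Elovl5*), 2 with the libraries of the study and 1 with all tissues in 1 fit (*Aacs*). In eWAT, 0 were called, but 7 with arrayWeights, 3 with all tissues in 1 fit (*Fasn*, *Acaca*, *Acss2*) and 0 to 6 with a library left out, where 6 were called without HS3W. In muscle, 0 were called, but 1 (*Scd2*) with a pseudocount of 0.1, with voom, with mitochondrially encoded genes left out by either scaling, and without HS5M (0 to 1 with a library left out). For the difference between eWAT and liver, 2 were called with the libraries of the study and 0 to 1 with a library left out. Between eWAT and muscle, 6 were called with arrayWeights and 1 with the libraries of the study. Between liver and muscle, 2 were called with the libraries of the study and 0 to 1 with a library left out. The cause was not tested, and the arrayWeights estimate did not converge fully. Genes called over the table moved likewise, from 0 to 926 (liver) and 220 (eWAT) with arrayWeights, 41 and 161 with all tissues in 1 fit, and from 35 in muscle to 66 with voom, 58 with mitochondrially encoded genes left out, 7 with no filter and 5 with all tissues in 1 fit. With 2 libraries in a group, their spread is assumed to be that of the other groups.

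The replicate block called 0 members in each tissue and in each difference. In muscle, where the numbers were taken as pairing, it called 54 genes in place of 35 and 0 members, and it changed no member's call.

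No estimate was called with the changed sign, while *Elovl6* in eWAT was called with the original sign without HS3W and with arrayWeights. For the log2 fold change, *Scd2* in liver was 0.052 with arrayWeights, *Elovl6* in eWAT was 0.10 with the libraries of the study and −1.69 (without HS3W) to 0.21 with a library left out, and *Scd1* in muscle was −1.20 to 0.032 with a library left out. For the difference between eWAT and liver, *Acly* was 0.14 and *Scd1* 0.084 with mitochondrially encoded genes left out, *Acly* was 0.096 and *Elovl5* −0.19 with the libraries of the study, and *Elovl6* was −0.38 with arrayWeights. With a library left out, *Elovl5* ranged from −0.015 to 0.60 and *Elovl6* from −0.42 (without HS3W) to 1.49. Between eWAT and muscle, *Elovl5* was −0.11 with median-ratio scaling, −0.097 with quantile normalization and −0.028 with the libraries of the study, *Elovl6* was 0.064 with a pseudocount of 0.1, 0.26 with voom and 0.40 with the libraries of the study, *Scd2* was 0.17 with the libraries of the study, and *Aacs* was 0.077 with arrayWeights. With a library left out, these ranged from −0.078 to 0.20 for *Elovl5*, −1.39 to 0.51 for *Elovl6*, −1.62 to 0.32 for *Scd2* and −0.29 to 0.12 for *Aacs*. Between liver and muscle, *Scd1* was 0.15 and *Elovl5* 0.16 with the libraries of the study, and with a library left out *Scd1* ranged from −0.83 to 0.40, *Elovl5* from −0.54 to 0.068 and *Acaca* from −0.53 to 0.067.

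Depth limits *Scd2* in liver and *Elovl6* in muscle, which had as few as 7 and 11 fragments in a library.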
